A study of Mus musculus with 7 samples.

Results

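The miRNAs described here are the miR-297, miR-466, miR-467 and miR-669 families of the mouse, most of which are encoded in an intron of Sfmbt2. The 4 families were picked with earlier results of these data known. Their members were then taken by name, as every mouse miRNA on the array whose name starts with one of these 4 family names. This gave 41 of the 696 mouse miRNAs on the array: 3 of miR-297, 14 of miR-466, 10 of miR-467 and 14 of miR-669. The cells were soft tissue sarcoma cells from p53 knockout mice on a C57BL/6 background, so all groups lack p53. Control primary cells (2 arrays) carried a non-target shRNA, Rb-depleted primary cells (2 arrays) carried an shRNA against Rb, and Rb-depleted secondary cells (3 arrays) were Rb-depleted cells recovered from spheres and returned to flat culture. The series describes the arrays of each group as independent experiments. Sphere-derived control cells were not analysed here, so passage through spheres cannot be told apart from other differences between the secondary and primary cells, and a miRNA array does not measure the Rb transcript.

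Sfmbt2 encodes a Polycomb-group protein, and in the mouse the gene is imprinted and expressed from the paternal copy in extraembryonic tissue. One of its introns holds a tandem array of miRNA hairpins that is found in rodents and is known for its expression in the placenta and in embryonic stem cells. The hairpins arose from simple repeats, so their mature products are rich either in G and U or in A and C, and members differ from each other by few bases. A mature miRNA guides Argonaute to target transcripts mainly through its seed, the stretch near the 5′ end.

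In the GENCODE annotation of NCBIM37 (mm9, the build that the array files name), Sfmbt2 (ENSMUSG00000061186) lies on the plus strand at chr2:10292137-10516880. Of 78 hairpins of the 4 families in that annotation, 67 lie in Sfmbt2 and all of these lie in intron 11 of the transcript Sfmbt2-203, on the strand of the gene, over 51.3 kb (chr2:10388571-10439906). These 67 comprise 5 hairpins of miR-297, 21 of miR-466, 12 of miR-467 and 29 of miR-669. The repeat units recur: Mir669a has 12 copies in the intron, Mir466b 8 and Mir467a 8, and an array value for such a miRNA sums over its copies. Of the 41 members, 31 map to the Sfmbt2 intron alone, 3 to the intron and another site, 6 to other sites alone, and miR-466a-5p has no hairpin of its name in the annotation. Among the members at other sites, Mir669n lies at chr3:115682820-115682873 (+) in intron 7 of Slc30a7, Mir466i at chr13:17839307-17839427 (+) in intron 7 of Cdk13 and Mir467f at chr11:69448902-69449021 (-) in intron 1 of Fxr2, each on the strand opposite to its host gene.

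Mature sequences were in RefSeq (GRCm38.p6) for 6 members, all of them encoded outside the Sfmbt2 intron. They are shown because they separate into the 2 repeat types that the later comparisons refer to. Capitals mark the seed, bases 2 to 8, and the sequences are written 5′ to 3′.
mmu-miR-669n: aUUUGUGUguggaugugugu
mmu-miR-466j: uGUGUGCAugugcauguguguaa
mmu-miR-466k: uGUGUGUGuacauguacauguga
mmu-miR-467f: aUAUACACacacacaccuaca
mmu-miR-466i-3p: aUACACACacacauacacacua
mmu-miR-467g: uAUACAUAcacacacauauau
The first 3 held 90.0%, 73.9% and 69.6% G and U in the order given, and the last 3 held 85.7%, 86.4% and 71.4% A and C. The 6 seeds all differed, so no seed group was formed among them. Of these 6, miR-669n, miR-467f and miR-466i-3p were detected on all 7 arrays, and miR-466j, miR-466k and miR-467g on none.

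Each array held 1 labelled RNA sample, and its scanner software gave for each miRNA a total gene signal in intensity units and a call of detected or not. The deposited table holds quantile-normalized log2 values for the 252 mouse miRNAs detected on all 7 arrays, and 258 to 287 mouse miRNAs were detected on each array. Changes between groups are differences in mean deposited log2 value, tested in 1 limma fit over the 252 miRNAs with a mean for each group. The number of arrays, 2 or 3 a group, limits their precision, and the standard errors also depended on the probes summed, as given with the probe signals. Of the 6 mesenchymal marker miRNAs, such as miR-199a and miR-21, 6 were detected on all arrays, whereas 0 of 5 epithelial and 0 of 4 blood cell markers were detected on any. Of 5 markers of embryonic stem cells, only miR-290-5p gave a detected signal, at 16.2 and 10.0 intensity units on the control arrays and on no other array. The endothelial marker miR-126-3p was detected on the 4 arrays of primary cells (7.02 to 10.7) and on no array of secondary cells. Of 3 muscle markers only miR-206-3p was detected, on all arrays, at 46.3 and 47.0 in control, 43.8 and 27.8 in Rb-depleted primary and 15.4, 36.4 and 12.9 in secondary cells. Of 2 neuron markers only miR-9-5p was detected, at 124.5 and 122.5, then 99.8 and 68.6, and then 101, 91.3 and 49.3. The part of other cell types in the family's values was not tested.

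The family was detected in part and at low level. Of the 41 members, 15 were detected on all 7 arrays and are in the deposited table, 4 were detected on some arrays, and 22 were detected on none. The share in the table, 36.6%, lay close to the 36.2% of all mouse miRNAs on the array, and the share detected nowhere, 53.7%, lay close to 55.2%. By family, 6 of 10 members of miR-467, 5 of 14 of miR-669, 4 of 14 of miR-466 and 0 of 3 of miR-297 were detected on all arrays. By arm, these were 7 of the 18 members named as 5p, 5 of the 13 named as 3p and 3 of the 10 with no arm in the name. Of the 41 members, 18 and 17 were detected on the 2 control arrays, 18 and 19 on those of Rb-depleted primary cells, and 16, 16 and 19 on the secondary arrays, so the groups overlapped.

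The hairpins of detected members lay along most of the intronic array. Of the 67 hairpins, 40 carry the name of a member detected on all arrays, 6 of a member detected on some and 12 of a member detected on none. The other 9 match no member on the array by name. Names alone were used: Mir466, which has no letter, is among the 9, and the deposited table calls miR-466b-3p miR-466a-3p. The 40 lay between 0.05 and 43.3 kb from the start of the first hairpin. Beyond the last of them, Mir669a-2, lay 13 hairpins at 44.8 to 51.3 kb, of which 8 belong to members detected on no array, 4 to members detected on some and 1 to no member. This end stretch was set by the last hairpin of a member detected on all arrays, so it can hold no such member, and its detection was not tested against the rest. Since the copies of miR-669a, miR-466b and miR-467a give the same mature product, the arrays do not show which of their hairpins was expressed.

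**Figure D1:**
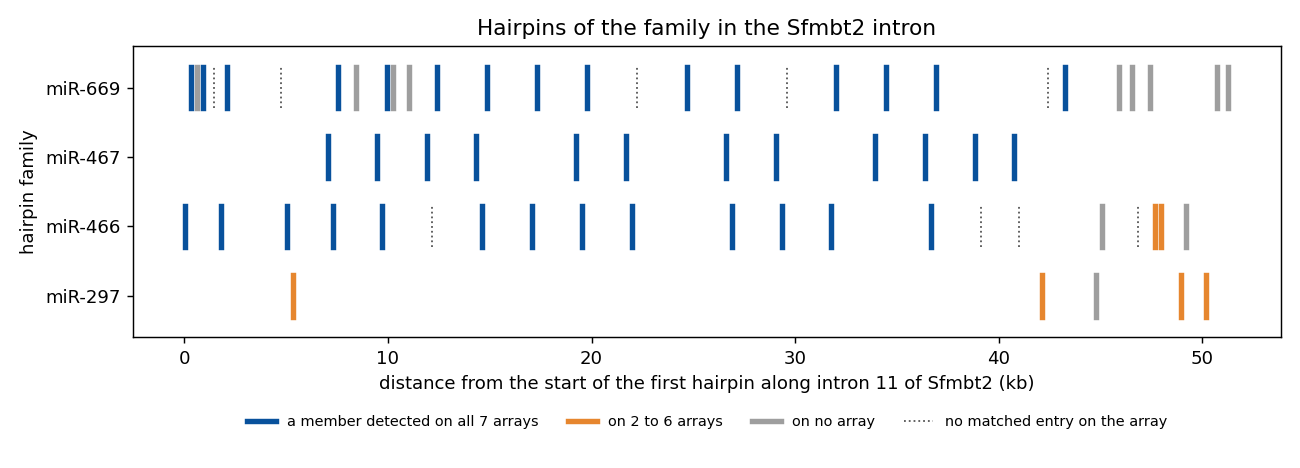
Position of the 67 hairpins of the 4 families within the Sfmbt2 intron, as the distance in kb from the start of the first hairpin (horizontal axis), by family (rows). Blue bars carry the name of a member detected on all 7 arrays, orange bars on 2 to 6 arrays and grey bars on no array. Dotted bars match no member on the array by name. The 40 blue bars spread from 0.05 to 43.3 kb.

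The 4 partly detected members had total gene signals of 4.03 to 9.38 where they were detected. The total gene signal of miR-466g was 6.38 on control array 1, 6.04 and 9.38 on the Rb-depleted primary arrays and 9.14, 7.66 and 7.19 on the secondary arrays, and it was not detected on control array 2. The control arrays gave 6.42 and 8.23 for miR-297a-3p, with 6.81 and 4.57 on the Rb-depleted primary arrays and 5.65 on secondary array 3, and miR-466h-5p had 4.68 and 6.35, 6.54 and 5.94, and 4.03 on the same arrays. Both were undetected on arrays 1 and 2 of the secondary cells. In contrast, miR-297c-5p was detected only on Rb-depleted primary array 2 (6.90) and Rb-depleted secondary array 3 (7.63). None of the 4 had an adjusted p under 0.05 in any pair of groups when undetected values were set to a floor of 1 and 312 miRNAs were fitted with limma. The lowest was that of miR-466g in secondary against control cells, a log2 fold change of 2.17 with a standard error of 0.72 and an adjusted p of 0.106, which rests on the undetected value of control array 2.

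The 15 members in the table were mostly at the low end of the expressed miRNAs. Their mean log2 values ranged from 3.70 to 7.99 with a median of 5.06, against a median of 6.90 over the 252 miRNAs, and 14 of the 15 lay below that median. Together they held 0.183% and 0.203% of the summed total gene signal of the table on the control arrays, 0.196% and 0.207% on the Rb-depleted primary arrays, and 0.175%, 0.143% and 0.183% on the secondary arrays. The share of array 2 of the secondary cells was the lowest. On this array 12 of the 15 members had their lowest total gene signal, as did 26.2% of the 252 miRNAs.

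The highest member was miR-669f-3p, from a hairpin near the start of the intronic array, at rank 91 of 252 by mean log2 value. The control arrays gave it a total gene signal of 289 and 335, the Rb-depleted primary arrays 263 and 225, and the secondary arrays 239, 199.9 and 242, so that both control arrays lay above all 5 arrays of Rb-depleted cells. Next came miR-669a, at rank 132, with 115 and 138, then 122 and 121, and then 103, 85.9 and 103 on the same arrays. At rank 148, miR-467b-5p had 91.2 and 106, then 94.7 and 96.4, and then 82.3, 54.1 and 80.4. In both of these the arrays of Rb-depleted primary cells lay between the control arrays, and the secondary cells lay below. The remaining members in falling order were miR-466b-3p, miR-467a-5p, miR-467f, miR-467e-5p, miR-669n, miR-466c-5p, miR-669l-5p, miR-467d-3p, miR-669b-5p, miR-466i-3p, miR-467c-5p and miR-466f-3p, at ranks 151 to 240. Total gene signals of different miRNAs also depend on their probes, so neighbours in this order cannot be ranked by abundance.

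**Figure D2:**
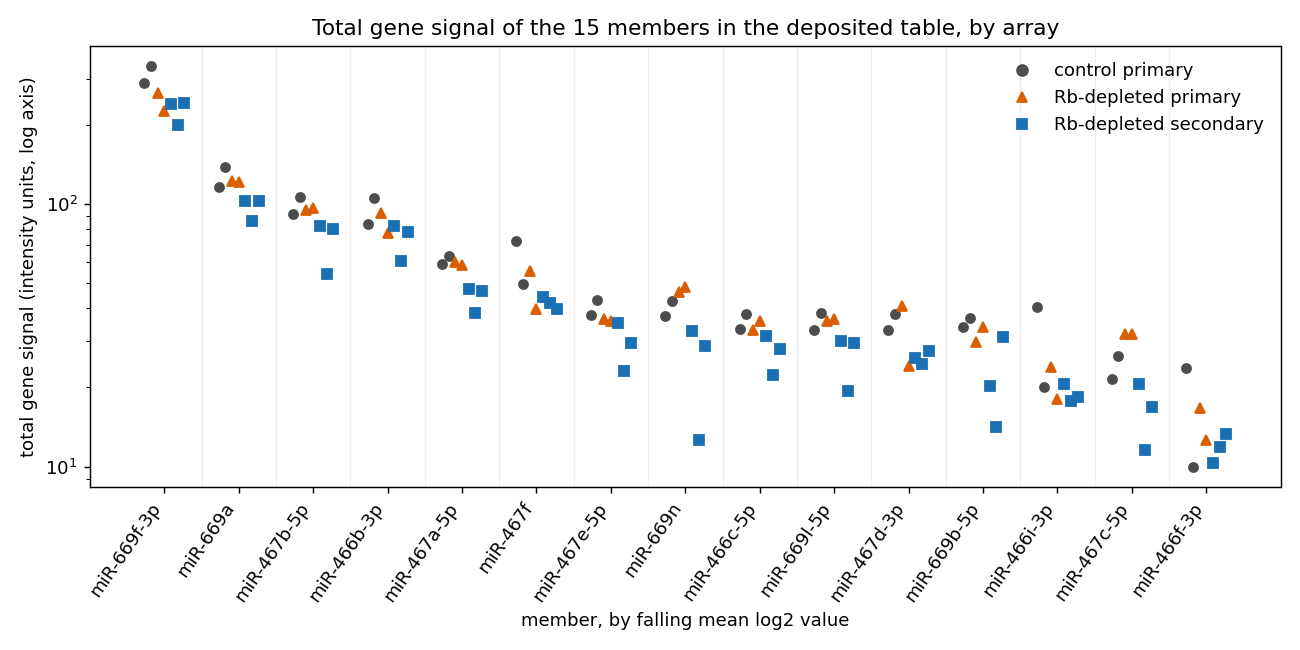
Total gene signal in intensity units (vertical log axis) of the 15 members detected on all arrays, ordered by falling mean log2 value. Each point is 1 array: circles for control primary cells, triangles for Rb-depleted primary cells and squares for Rb-depleted secondary cells, with signals from 10.0 to 335. Before normalization the secondary cells lie at or below the primary cells in most members, and miR-669f-3p stands above the rest.

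Comparing Rb-depleted with control primary cells asks how the family differs with Rb depletion before any sphere culture. In bulk RNA, fewer cells that express a miRNA and less of it per cell cannot be told apart. After quantile normalization 13 of the 15 members had a higher mean in Rb-depleted primary cells, with a median log2 fold change of 0.33, against a median of 0.01 over all 252 miRNAs, of which 50.4% were higher. No member had an adjusted p under 0.05 by limma, against a background of 1.59% (4 of 252), which was 0 of 252 with the slide as a term. An unadjusted p under 0.05 was found for 3 members, and the classical test also called 0. Both Rb-depleted arrays lay above both control arrays in 10 of the 15 members, against 31.0% of the 252, and below them in 1, miR-669f-3p, against 26.6%. The 10 were miR-466b-3p, miR-466c-5p, miR-467a-5p, miR-467b-5p, miR-467c-5p, miR-467e-5p, miR-669a, miR-669b-5p, miR-669l-5p and miR-669n. Among them only miR-467c-5p and miR-669n had both Rb-depleted arrays above both control arrays in total gene signal, before normalization. The 10 share the same arrays and their deposited values were correlated (median pairwise Pearson correlation 0.80), so they are not 10 separate observations. All 7 members named as 5p had a higher mean, with log2 fold changes from 0.23 to 0.86 and a median of 0.36, whereas the 5 named as 3p ranged from -0.22 to 0.61. The arrays lay on a single slide in this comparison.

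Among single members the difference was largest for miR-467c-5p, from a single hairpin of the intron. Its deposited log2 values were 3.99 and 4.32 on the control arrays and 4.90 and 5.13 on the Rb-depleted primary arrays, without overlap, and the log2 fold change was 0.86 (standard error 0.27, limma adjusted p = 0.141). For miR-669n, outside the intron, the values were 4.84 and 5.03 against 5.38 and 5.82, a log2 fold change of 0.67 (standard error 0.40, adjusted p = 0.354). The log2 fold changes of the abundant members miR-669a and miR-467b-5p were both 0.33, with standard errors of 0.12 and 0.24 and adjusted p-values of 0.155 and 0.427. The lower members were miR-669f-3p, at 8.13 for each control array against 7.95 and 7.87, a log2 fold change of -0.22 (standard error 0.10, adjusted p = 0.236), and miR-466i-3p at -0.07 (standard error 0.34, adjusted p = 0.939). The equal control values of miR-669f-3p come from the normalization, since its total gene signals on these arrays differ.

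The direction of the family's difference depends on the scaling. With no scaling between arrays, the median log2 fold change was -0.08 over the members and -0.26 over the 252 miRNAs, and 3 of the 15 members were higher in Rb-depleted primary cells. Relative to the median of all miRNAs the members were higher by 0.17 on the log2 scale without normalization and by 0.32 after it. The 112 miRNAs of the table that are no members and lie below its median level had a median log2 fold change of -0.02 after normalization, and 48.2% of them were higher.

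**Figure D3:**
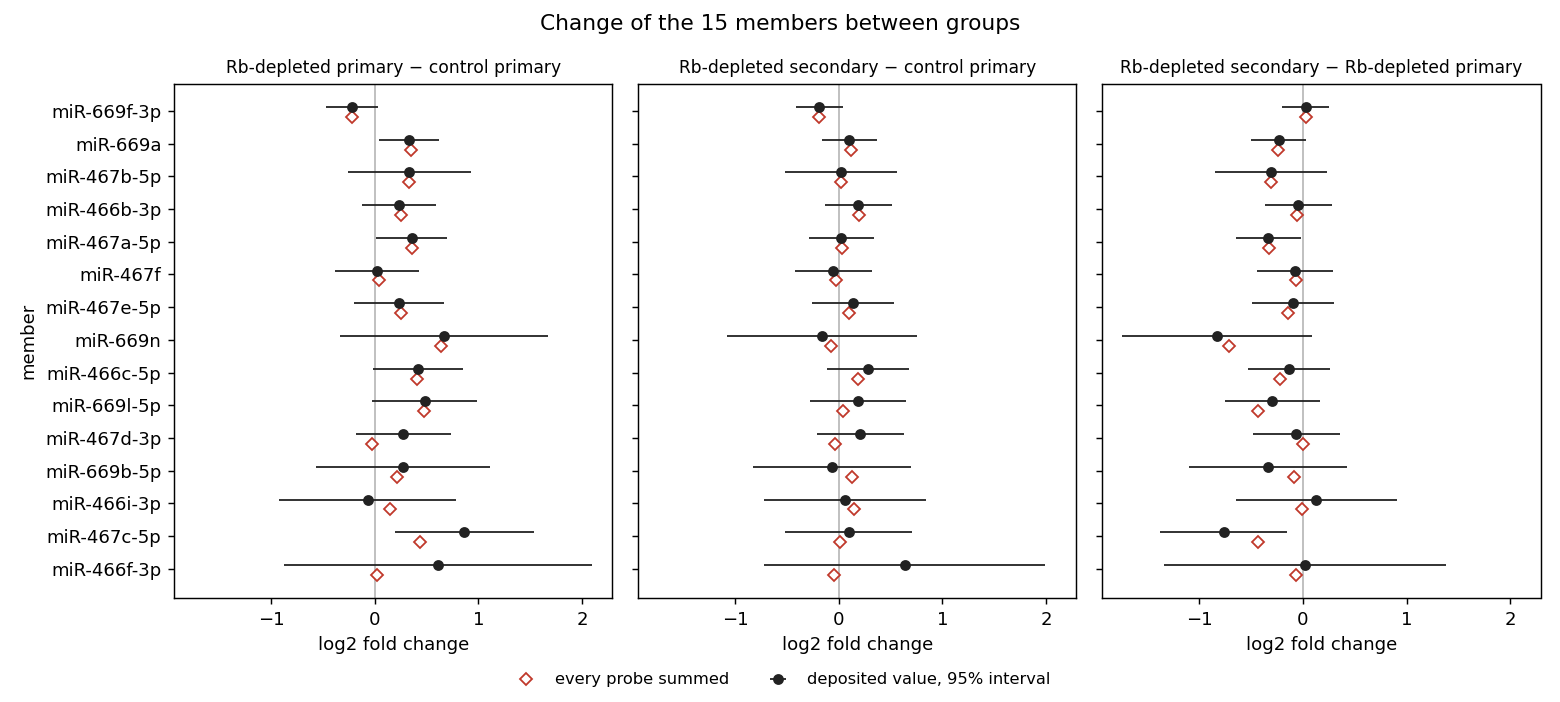
Log2 fold change (horizontal axis) of each of the 15 members in the 3 comparisons (panels), ordered by falling mean level. Black points are the deposited values with 95% confidence intervals from limma, and open red diamonds are the values when every probe was summed on every array; in Rb-depleted primary against control cells 13 of 15 points lie above 0 under each, and miR-467c-5p and miR-466f-3p move towards 0 with every probe summed.

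Comparing Rb-depleted secondary with control primary cells, the members lay close to the level of control cells after normalization. The median log2 fold change was 0.10 over the members and 0.03 over the 252 miRNAs, 11 of 15 members had a higher mean in secondary cells, and 0 passed the limma test, against a background of 22.6% (57 of 252). None of the 15 had an unadjusted p under 0.05, and the classical test called 0. All secondary arrays lay above both control arrays for miR-466c-5p and miR-467d-3p (29.8% of the 252) and below them for miR-669f-3p (22.2% of the 252). Array 1 of the secondary cells lay on the slide of the primary cells and arrays 2 and 3 on another. With the slide as a term the secondary mean therefore rests on array 1 alone, and the median over the members was 0.20. Fewer of the 252 miRNAs passed in that fit, which cannot tell a slide effect from the loss of arrays. Without normalization 0 of the 15 members were higher, and the median was -0.47 over the members and -0.46 over all 252.

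The highest value was that of miR-466f-3p, with a log2 fold change of 0.63, a standard error of 0.54 and an adjusted p of 0.443 by limma. Its values were 4.24 and 2.27 in control cells and 3.81, 3.93 and 3.93 in secondary cells, so the secondary arrays lay between the control arrays. Without control array 1 the log2 fold change was 1.61 with an adjusted p of 0.0154, and without control array 2 it was -0.35. Next was miR-466c-5p, at 4.70 and 4.74 in control cells and 5.18, 4.81 and 5.01 in secondary cells, a log2 fold change of 0.28 (standard error 0.16, adjusted p = 0.256). The lowest log2 fold changes were those of miR-669f-3p, -0.19 (standard error 0.09, adjusted p = 0.183), and miR-669n, -0.16 (standard error 0.37, adjusted p = 0.792). The secondary values of miR-669n were 5.20, 4.07 and 5.04, and without array 2 of the secondary cells its log2 fold change was 0.19.

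Comparing secondary with primary Rb-depleted cells asks what differs after passage through spheres when both are depleted of Rb. The members had lower means in secondary cells in 12 of 15, with a median log2 fold change of -0.14, against 0.02 over the 252 miRNAs. The limma test called 0 members, against a background of 20.2% (51 of 252). These background calls did not hold with the slide as a term, but the secondary mean then rests on array 1 alone. The median over the members was -0.12 in that fit. Of the members, 2 had an unadjusted p under 0.05, and the classical test called 0. Every secondary array lay below both primary arrays for miR-467a-5p, miR-467c-5p, miR-669a and miR-669n, 4 of 15 against 24.2% of the 252, and above them for miR-466i-3p, 1 of 15 against 27.0%. All 7 members named as 5p had lower means, from -0.77 to -0.09. The median over the members was -0.32 without Rb-depleted primary array 1 and -0.09 without secondary array 2.

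The lowest log2 fold changes were those of miR-669n, -0.83 (standard error 0.37, adjusted p = 0.156), and miR-467c-5p, -0.77 (standard error 0.25, adjusted p = 0.0766). The values of miR-467c-5p in secondary cells were 4.63, 3.86 and 4.26, all below the 4.90 and 5.13 of Rb-depleted primary cells and overlapping the 3.99 and 4.32 of control cells. Scaling to the median of the miRNAs outside the family, in place of quantile normalization, gave miR-467c-5p -0.91 and an adjusted p of 0.0375. The highest were miR-466i-3p at 0.13 (standard error 0.31, adjusted p = 0.806) and miR-669f-3p at 0.03 (standard error 0.09, adjusted p = 0.854).

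Over the 3 groups together, miR-467c-5p was the only member past the moderated F-test at an adjusted p of 0.1 (limma adjusted p = 0.0888), whereas 43.3% of the 252 miRNAs passed. In limma with Dunnett's adjustment for the comparisons with control cells, its adjusted p was 0.0319 for the Rb-depleted primary and 0.894 for the secondary cells, where 17.9% and 28.2% of the 252 miRNAs passed both tests. The call was lost under 9 of 12 other settings of the processing or the test, among them the classical analysis (adjusted p = 0.178). Another of the 9 was slide as a term, where the secondary mean rests on array 1 alone. With 1 array left out, miR-467c-5p passed without secondary array 1 or 2 and in none of the other 5 cases. Without secondary array 2, 4 members passed, namely miR-467a-5p, miR-467c-5p, miR-669l-5p and miR-669n. The share of the 252 miRNAs that passed with 1 array left out is not given, so these calls have no background beside them. Without control array 1, miR-466f-3p and miR-466i-3p passed, without control array 2 miR-466i-3p, and without Rb-depleted primary array 2 miR-467d-3p.

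The total gene signal of a member was not always built from the same probes. A miRNA has 1 to 4 kinds of probe on the array among the members, and the total of an array summed only those whose signal exceeded 3 times its error on that array: the lowest ratio of signal to error among counted probes was 3.01 and the highest among uncounted ones 2.999. The set of counted probes differed between arrays for 6 of the 15 members (40.0%) and for 43 of the 252 miRNAs (17.1%). The 6 were miR-466f-3p, miR-466i-3p, miR-467c-5p, miR-467d-3p, miR-669b-5p and miR-669n, all among the 8 lowest members by mean level.

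For miR-467c-5p the change in the probe set coincided with the groups. Its stronger probe gave 21.5 and 26.3 intensity units on the control arrays, 22.7 and 24.3 on the Rb-depleted primary arrays, and 20.7, 11.6 and 16.9 on the secondary arrays, with Rb-depleted primary arrays between the control arrays. The weaker probe gave 7.39 and 9.59, then 9.26 and 7.70, and then 7.24, 3.46 and 5.99, and it was counted only on the 2 Rb-depleted primary arrays. On control array 2 its signal, the highest of the 7, was left out at 2.99 times its error. With every probe summed on every array before quantile normalization, which was tried once the values were known, the log2 fold change of miR-467c-5p was 0.44 in Rb-depleted primary against control cells (limma adjusted p = 0.226) and -0.43 in secondary against Rb-depleted primary cells (adjusted p = 0.145), and its F-test had an adjusted p of 0.185.

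For miR-669n both probes were counted on every array but secondary array 2. The stronger probe gave 22.7 and 24.9 on the control arrays, 26.8 and 27.3 on the Rb-depleted primary arrays, and 19.1, 12.7 and 17.7 on the secondary arrays. In these signals, which are not scaled between arrays, the groups did not overlap. The deposited values of the secondary arrays (5.20, 4.07 and 5.04) overlapped those of the control arrays (4.84 and 5.03). The weaker probe was left out on secondary array 2 at 7.10 and gave 11.1 to 21.1 on the other arrays. Summing only the probes counted on all 7 arrays was also tried once the values were known. There miR-669n was the only member called in secondary against Rb-depleted primary cells, with a log2 fold change of -0.61 (limma adjusted p = 0.0246). It was also the only one past the F-test (adjusted p = 0.0329). With every probe summed the same change was -0.71 with a limma adjusted p of 0.0745. In this comparison 51 of the 252 miRNAs were called as deposited and 56 with every probe summed. How many were called with the probes counted on all 7 arrays is not given, so the call of miR-669n has no background beside it. The standard error of its log2 fold change in Rb-depleted primary against control cells was 0.40 as deposited, 0.25 with every probe summed and 0.13 with the probes counted on all arrays.

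For miR-466i-3p and miR-466f-3p the probe set changed between the 2 control arrays. The weaker probe of miR-466i-3p was counted on control array 1 alone, which gave total gene signals of 40.7 and 20.1 in control cells, where its stronger probe gave 28.7 and 20.1. Of the 4 probes of miR-466f-3p, the third was counted on control array 1 (8.54) and not on control array 2 (4.71, at 2.93 times its error), and the totals were 23.7 and 10.0. Of all 252 miRNAs, these were the third largest and the largest difference in deposited value between the control arrays, 1.10 and 1.96 on the log2 scale, against a median size of 0.12. With every probe summed they were 0.63 and 0.96, and the log2 fold change of miR-466f-3p in secondary against control cells was -0.05. Over the 15 members, summing every probe gave medians of 0.25, 0.03 and -0.15 in the 3 comparisons in the order above, with 13, 10 and 1 of 15 higher.

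**Figure D4:**
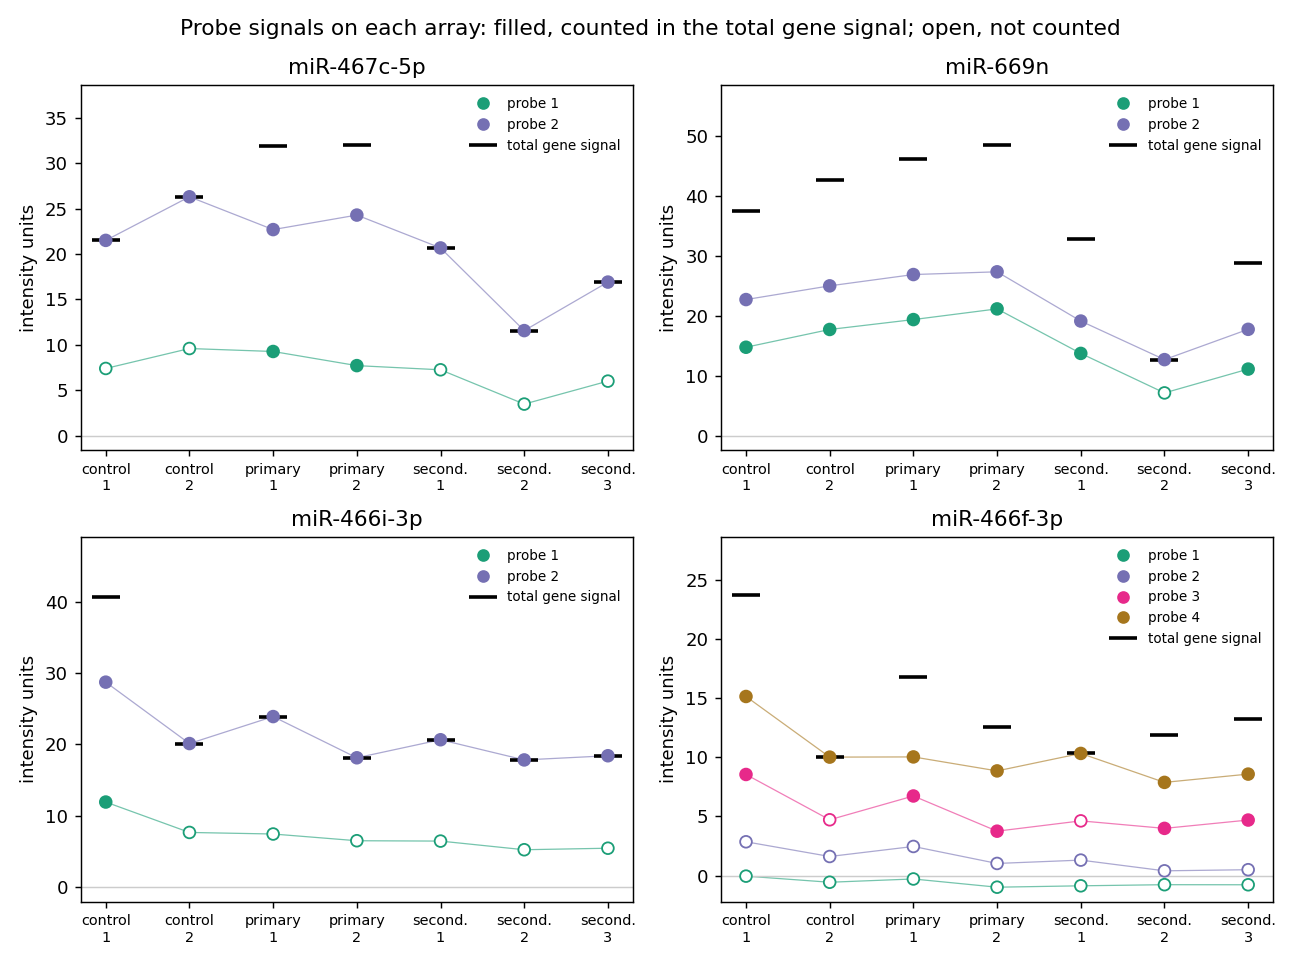
Signal in intensity units (vertical axis) of each probe of 4 members on the 2 control primary, 2 Rb-depleted primary and 3 Rb-depleted secondary (second.) arrays. Filled points were counted in the total gene signal (black dashes) and open points were not; the weaker probe of miR-467c-5p is filled on the 2 Rb-depleted primary arrays alone.

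Across the 7 arrays, 13 of the 15 members fell into 2 sets by their correlations, and miR-669f-3p and miR-467d-3p fell into neither, with no correlation above 0.18 and 0.38 with any other member. The 7 members named as 5p had pairwise Pearson correlations of 0.47 to 0.97 with a median of 0.83. The 3 members miR-466f-3p, miR-466i-3p and miR-467f had correlations of 0.72 to 0.86 with each other. The last 2 hold the AC repeats shown above, whereas miR-466f-3p and the members named as 5p had no RefSeq sequence to compare. Between these 3 and the set of the 7 members named as 5p with miR-669n, miR-669a and miR-466b-3p, the median correlation was -0.13. These sets were chosen after the values were seen, the 7 arrays are shared by all values, and the correlations are descriptions. The 3 members had higher values on control array 1 than on control array 2, by 0.44 for miR-467f, while 9 of the 10 others were lower on control array 1. For miR-466f-3p and miR-466i-3p, whose probe set changed between these arrays, the difference was 1.96 and 1.10 as deposited. With every probe summed it was 0.96 and 0.63. The 3 miRNAs of the table most like miR-669f-3p over the 7 arrays were miR-345-5p (r = 0.94), miR-1983 (0.93) and miR-24-3p (0.86), none of them a member.

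Repeat sequences also occur in miRNAs outside the family. On the mature strand, UGUGUG was found in 5 and ACACAC in 5 of the 198 miRNAs of the table with a RefSeq sequence, 2.53% each. Among the first miR-669n is the member, and among the second miR-466i-3p and miR-467f are the members. These 3 are the only members in the table with a RefSeq sequence. The other members were therefore not searched, and whether they hold either motif is not shown here. Outside the family the first held miR-574-5p, miR-1187, let-7b-5p and miR-206-3p, and the second miR-574-3p, miR-329-3p and miR-362-3p. The 3 miRNAs compared most closely with the family are encoded elsewhere and are shown with the seed in capitals.
mmu-miR-574-5p: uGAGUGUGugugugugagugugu
mmu-miR-1187: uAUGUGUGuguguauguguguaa
mmu-miR-574-3p: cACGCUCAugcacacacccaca
G and U made up 91.3% of miR-574-5p and 82.6% of miR-1187, next to the 90.0% of miR-669n.

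Of the 4 miRNAs with UGUGUG outside the family, miR-1187 alone passed the test in Rb-depleted primary against control cells. The deposited values of miR-1187 were 5.23 for each control array, 5.77 and 5.93 for the Rb-depleted primary arrays, and 5.34, 5.23 and 5.32 for the secondary arrays. Its total gene signals were 47.6 and 45.5, then 56.2 and 55.4, and then 35.5, 32.4 and 33.9. The equal control values therefore come from the normalization. Its log2 fold change was 0.62 in Rb-depleted primary against control cells (standard error 0.09, limma adjusted p = 0.0432) and -0.55 in secondary against Rb-depleted primary cells (standard error 0.08, adjusted p = 0.0159). With the slide as a term the first call was lost (limma adjusted p = 0.0713). The second was lost as well, but its log2 fold change of -0.51 in that fit rests on secondary array 1 alone. The first passed under 4 of 12 other settings and the second under 9. With 1 array left out, the first passed only without Rb-depleted primary array 1 or secondary array 2 (adjusted p of 0.0326 to 0.201 over the 7 cases), and the second was lost only without Rb-depleted primary array 2 (adjusted p = 0.0838). For miR-574-5p these log2 fold changes were 0.51 (adjusted p = 0.102) and -0.31 (adjusted p = 0.0812). The other 2 miRNAs with UGUGUG, let-7b-5p and miR-206-3p, had 0.14 and -0.11 in Rb-depleted primary against control cells, neither past the test. The AC-rich members miR-467f and miR-466i-3p had 0.02 and -0.07 in the same comparison, and miR-574-3p, miR-329-3p and miR-362-3p had -0.10, -0.29 and -0.09, none past the test. In secondary against control cells the log2 fold change of miR-362-3p was 0.80 (limma adjusted p = 0.0106). It was 0.90 with the slide as a term, where the secondary mean rests on array 1 alone, and the call was then lost. The call was also lost without control array 1 or 2, which leaves 1 control array. That of miR-574-3p was 2.56 (standard error 0.64, limma adjusted p = 0.0402), but 0.52 with an adjusted p of 0.357 when the table was normalized alone. Its total gene signals overlapped, at 6.40 and 4.85 in control and 7.07, 4.01 and 10.9 in secondary cells. The 4.85 was the lowest detected signal of control array 2. The call passed under 1 of 12 other settings and, with 1 array left out, only without secondary array 2 (adjusted p = 0.0163). In the same comparison miR-467f had -0.05 and miR-466i-3p 0.06. Differences between these miRNAs in their response were not tested.

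**Figure D5:**
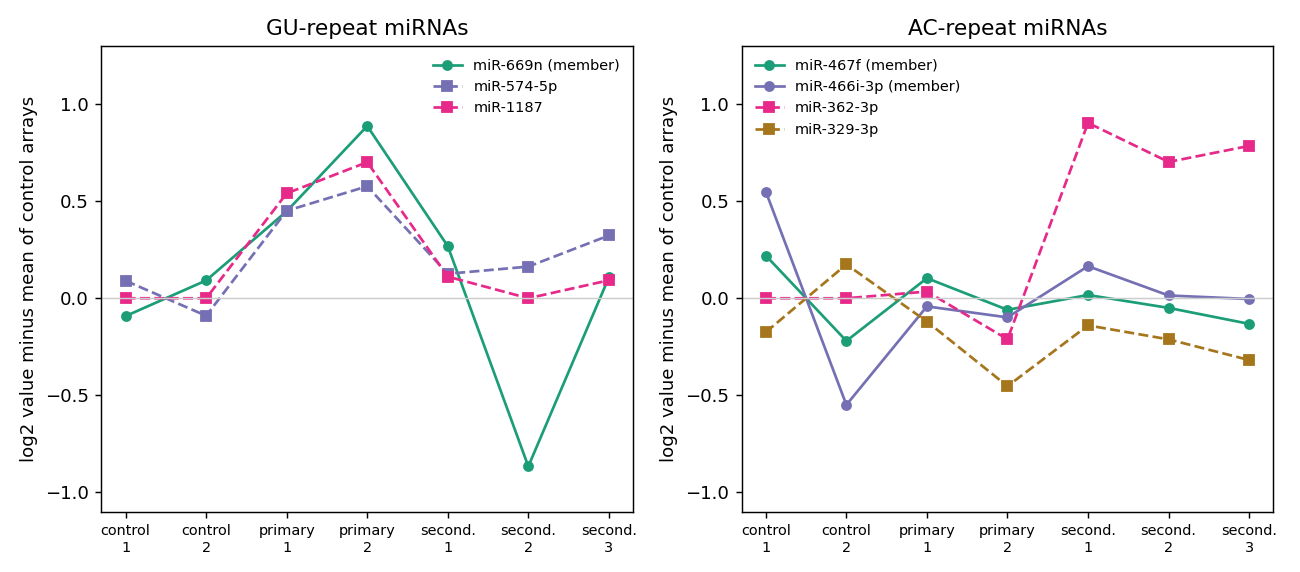
Deposited log2 value minus the mean of the 2 control arrays (vertical axis) on each of the 7 arrays, for miRNAs with GU repeats (left) and AC repeats (right). Solid lines are members and dashed lines are miRNAs outside the family; both Rb-depleted primary arrays lie above both control arrays for miR-669n, miR-574-5p and miR-1187, and miR-574-3p is left out because its range would hide the others.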

How the data were processed

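Labelled RNA was hybridized to Agilent mouse miRNA arrays in 1 colour, and the 7 arrays were grouped by the sample titles (control primary, 2; Rb-depleted primary, 2; Rb-depleted secondary, 3). The authors deposited 1 scanner file per array, with the intensity of each spot and the total gene signal and detection call of each miRNA (Agilent Feature Extraction, 10.7.3.1 in the submitters' processing notes and 11.0.1.1 per the file headers), and a table of log2 values that GeneSpring had quantile normalized. The table holds 252 mouse miRNAs, and its 11 control rows were left out. The table names of 12 of the 15 members differ from the scanner names. Among them miR-467d-3p is miR-467a-1* and miR-466b-3p is miR-466a-3p in the table, so their hairpins follow the scanner names alone. The names were matched by value. Quantile normalization of the log2 total gene signal over 718 features gave the deposited values to within 3.2e-06, and no other feature came within 0.0998. Scanner names are used here (miR-669a and miR-466c-5p carry a version suffix there).

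The members and lists were chosen with earlier results of these data known. The deposited log2 values were fitted in R 4.3.3 with limma 3.58.1, all 7 arrays, 3 group means and no covariate. P-values are two-sided with Benjamini-Hochberg adjustment over the 252 miRNAs, at 0.1 for the F-test and 0.05 for pairs of groups, and mvtnorm 1.3.3 gave Dunnett's adjustment. Values were read and summarised with pandas 2.3.3 and numpy 2.4.6 under Python 3.11.15, and figures drawn with matplotlib 3.10.9. The fit was tested on simulated data. Values per array are given for the 3 members of highest mean and, in each pair of groups, the 2 largest log2 fold changes in each direction. Probes counted in a total gene signal were found by matching sums of probe signals to it.

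Alternatives were other scalings, no filter with a floor of 1 or 5 for undetected values, the replicate number as a block, slide as a term, other tests and thresholds, each array left out, and 2 probe sums added after the data were seen. Hairpins came from the GENCODE annotation of NCBIM37 and mature sequences from RefSeq.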

Additional observations from a re-analysis of the deposited data

Results flagged for a closer look

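One member without a value in the deposited table was detected on arrays of Rb-depleted cells and on no control array: miR-297c-5p, with total gene signals of 6.90 on Rb-depleted primary array 2 and 7.63 on Rb-depleted secondary array 3. Its stronger probe gave 7.63 and 9.17 intensity units on the control arrays, where it was left out at 2.62 and 2.87 times its error, and 5.95 to 7.63 on the 5 arrays of Rb-depleted cells. These signals are not scaled between arrays, and in them no array of Rb-depleted cells lay above both control arrays. Whether this holds once the arrays are scaled was not tested. With 2 or 3 arrays a group, no group was large enough for a test of single arrays that stand apart.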

How the results depend on the processing

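No member was called in any pair of groups as reported (limma, 3, 0 and 2 members with an unadjusted p under 0.05 in the order of the report). For the F-test across the 3 groups, 1 member was called as reported and 4 were without normalization. The count was 0 at the 75th percentile scaling, with the table normalized alone and with a floor of 1 or 5. It was also 0 with the classical test, with every probe summed and at a threshold of 0.05. Leaving out 1 secondary array gave 0 to 4. The share of all 252 miRNAs past the F-test is given for the reported setting alone (43.3%), so the other counts have no background beside them. In pairs of groups no such share is given for the classical test or the threshold of 0.1. Nor is it given for the fits with 1 array left out or for the probes counted on all arrays. In Rb-depleted primary against control cells, 1 member was called after Dunnett's adjustment (miR-467c-5p), where 17.9% of the 252 miRNAs passed. Leaving out 1 secondary array gave 0. In secondary against control cells, 2 were called without normalization (miR-669f-3p and miR-467a-5p), where 114 of the 252 miRNAs were called. Leaving out 1 secondary array gave 0. Without control array 1, which leaves 1 control array, miR-466f-3p had a log2 fold change of 1.61. In secondary against Rb-depleted primary cells, miR-467c-5p alone was called without normalization, with scaling to the median of the miRNAs outside the family and at a threshold of 0.1. Over the 252 miRNAs, 45 were called without normalization and 62 with that scaling. With only the probes counted on all arrays 1 member was called (miR-669n), and leaving out 1 secondary array gave 0.

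The median log2 fold change of the members in Rb-depleted primary against control cells was -0.084 without normalization and 0.15 at the 75th percentile scaling, and 0.23 to 0.44 with 1 array left out. In secondary against control cells it was -0.47 without normalization and -0.034 with scaling to the median outside the family, and 0.01 to 0.19 with 1 array left out. In secondary against Rb-depleted primary cells it was -0.33 without normalization, and -0.32 to -0.086 with 1 array left out. The causes were not tested beyond the probe sums.

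Single members changed direction in some settings, none past the test there. In Rb-depleted primary against control cells, miR-466i-3p was at 0.15 with every probe summed and 0.14 with the probes counted on all arrays (-0.62 to 0.48 with 1 array left out), and without normalization miR-669a was at -0.057 and miR-467b-5p at -0.041. In secondary against control cells, without normalization miR-466c-5p was at -0.40 and miR-466f-3p at -0.39. With every probe summed miR-466f-3p was at -0.0496 (-0.35 to 1.61 with 1 array left out). With slide as a term, where the secondary mean rests on array 1 alone, miR-669n was at 0.27 (-0.38 to 0.19 with 1 array left out). In secondary against Rb-depleted primary cells, miR-669f-3p was at -0.11 without normalization and -0.0068 with scaling to the median outside the family (-0.015 to 0.094 with 1 array left out), and miR-466i-3p at -0.14, at -0.039 and, with every probe summed, at -0.0077.

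Deviations of same-numbered arrays from their group means had correlations of -0.14 to 0.13. In a group of 2 arrays the deviations mirror each other, so these values cannot settle whether the replicate numbers pair the samples. With the replicate number as a block, 0 members passed the F-test and 0 passed in any pair of groups. The block takes up secondary array 3, the only array of that number, so the medians of 0.33, 0.09 and -0.14 are those without that array. In that fit miR-669f-3p in secondary against Rb-depleted primary cells was at -0.0040.

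Detection follows the ratio of a probe's signal to its error and not a fixed signal, so undetected members are not shown to be absent.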
